A study of Homo sapiens and Mus musculus with 20 samples.

Results

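MS-275 is a benzamide inhibitor of class I histone deacetylases (HDACs), and its effect on gene expression was measured by bulk RNA-seq in IMR90, an established line of human fetal lung fibroblasts. The comparison holds 4 of the 20 libraries of the series, namely the 2 labelled IMR90_MS-275 and the 2 of its own control, labelled IMR90_Control3. Libraries entered by their labels, and no measured value was used to choose them. All 4 carry the genotype label WT and the tissue label lung, and the control cells are labelled as having received no treatment. The dose and duration of MS-275 for these libraries are not given in the sources used here. IMR90 is a single line with a limited number of divisions in culture, and nothing in the labels says whether replicates came from separate cultures. P-values therefore measure the spread between these samples, which may be technical. The study asked which genes change when the enzymes able to remove histone lactylation are inhibited. In IMR90 it reported less histone lactylation and more histone acetylation after MS-275, from immunoblots and CUT&Tag. From RNA-seq of this treatment it reported lower expression of mitotic cell cycle, DNA replication and DNA repair genes. From staining and immunoblots it reported faster senescence.

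Class I HDACs remove acetyl groups from lysines of histone tails and of other proteins, and they act within corepressor complexes (NuRD, Sin3, CoREST and NCoR) that transcription factors bring to DNA. HDAC1, HDAC2 and HDAC3 can also remove lactyl groups. In dividing cells, HDAC inhibitors are known for an arrest of the cell cycle, and some genes silenced in a cell type through corepressors, such as neuronal genes held down by REST outside the nervous system, can become expressed. Senescent fibroblasts are known for a lasting arrest with loss of lamin B1, a gain of the CDK inhibitors p16 and p21 and secretion of proteases, growth factors and cytokines.

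The libraries held 42296464 and 41077361 reads in control and 46764453 and 46971227 after MS-275, over 16417 listed genes, each with at least 10 reads in at least 2 of the libraries. Values below are read counts divided by 1 size factor per library (normalised counts), in which 1 read is worth 0.968 to 1.01. Replicates stood apart along transcript length. Across 14575 genes with a known transcript, the log2 difference of control library 1 from control library 2 had a Spearman's rho of 0.54 with transcript length and -0.38 with GC content. The same values for the MS-275 libraries were 0.52 and -0.47, and genes are not independent replicates. For ratios of MS-275 to control taken within a replicate number, rho with length was -0.01 in number 1 and 0.02 in number 2. Such within-number log2 ratios, of value + 1, are used below to describe which genes moved alike. In a comparison of bulk samples, a change in the mix of cells and a change of RNA within each cell cannot be told apart.

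Of 15883 genes with a mean of at least 10, 1082 had a log2 ratio above 1 within both numbers, which is 6.81% of the genes, and 770 had a ratio under -1 within both, which is 4.85%. These are called higher in both and lower in both from here on. A further 79 genes lay past 1 in opposite directions. The groups did not overlap in 1015 of the 1082 higher genes and in 703 of the 770 lower genes. Lack of overlap in a gene named below is thus shared by most genes counted. Ratios above 3 within both numbers were found for 118 genes and ratios under -3 for 54. The last gene counted as higher had a smaller ratio of 1.0005 and the first not counted 0.9995, and the matching values for lower genes were -1.0005 and -0.9994. The median ratio over all genes was -0.01. It was -0.15 when libraries were scaled to equal totals, so that list medians below that lie within this shift of 0 depend on the scaling.

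The median control value was 29.9 among genes higher in both, 247 among genes lower in both and 619 among all genes. These medians are a description, since the control value enters the ratio by which the genes were counted. Among the higher genes, 329 had a control mean under 10, so that they passed the filter only through the MS-275 libraries. Such genes also enter the counts of gene lists and families below. Among the lower genes, 144 had an MS-275 mean under 10. Of the genes with an annotated type, 11.2% of the higher, 7.23% of the lower and 7.36% of all were long noncoding RNAs.

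With 2 libraries a group, limma with no covariate and Benjamini-Hochberg adjustment called 0 genes (0%), against 1730 at an unadjusted p under 0.05, and edgeR on recovered reads also called 0. DESeq2 on recovered reads called 350 genes higher (2.13% of 16417) and 224 lower (1.36%), of which 341 and 220 were also higher or lower in both numbers. Adjusted p-values given for single genes below come from DESeq2 unless limma is named. Apart from the senescence and lysosomal marker panel and the class I HDACs, single genes were named by their values in these libraries. Their p-values are therefore a description and not separate support. None is given for called genes with a control mean under 10. The smallest adjusted p of any named gene in this limma fit was 0.142, so that no difference below passed limma without a covariate.

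**Figure D1:**
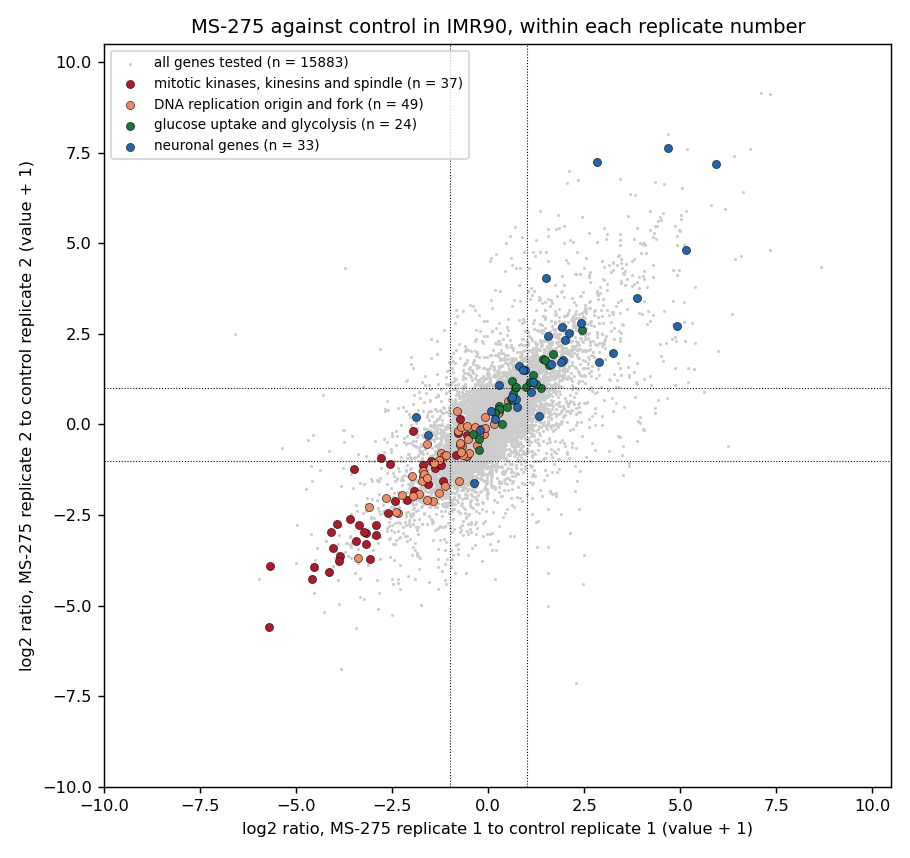
Log2 ratio of MS-275 to control (value + 1) within replicate number 1 (horizontal axis) and number 2 (vertical axis), 1 point per gene, for 15883 genes in grey with 4 gene lists coloured and dotted lines at 1 and -1. Mitotic genes lie in the lower left and most neuronal genes in the upper right, where 1082 genes were past 1 in both numbers.

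The RNA of the targets of MS-275 themselves stayed within the limits. HDAC1 (chromosome 1, 32292083 to 32333635, plus strand) measured 4712 and 6664 in control and 6185 and 10178 after MS-275. HDAC2 (chromosome 6, 113933028 to 114011308, minus strand) measured 6473 and 5593 in control and 6556 and 5029 after MS-275. HDAC3 (chromosome 5, 141620876 to 141636849, minus strand) measured 1926 and 3260.3 in control and 2681 and 5659 after MS-275. HDAC1 was 1.31-fold and 1.53-fold of control within numbers 1 and 2, and HDAC3 1.39-fold and 1.74-fold. HDAC2 was 1.01-fold and 0.899-fold of control. The groups overlapped in all 3 genes, and DESeq2 called none of them. Of the 4 class I enzymes, 0 were higher or lower in both numbers, and their median ratio was 0.30.

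Counts among the partners of these enzymes were near the 4.85% of all genes lower in both. Among 14 other deacetylases and sirtuins 1 was lower in both, SIRT1, a nuclear NAD-dependent deacetylase, with 1785 and 1060.1 in control and 838 and 375 after MS-275. Among 24 subunits of the corepressor complexes 1 was lower in both, CHD3, a remodelling ATPase of NuRD, with 13520.2 and 14288 in control and 5896 and 6513 after MS-275. Neither was called by DESeq2. The 13 histone acetyltransferases held 0 genes past 1 in both numbers, but 12 of 13 ratios were below 0, with a median of -0.55. The lowest was that of CREBBP, which acetylates histones together with its paralog EP300 and measured 4309 and 784 in control and 1937 and 446 after MS-275. Its control libraries differed more from each other than from the MS-275 library of the same number.

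Genes of mitosis had the lowest median ratio of the lists examined. Of 37 mitotic kinases, kinesins and spindle proteins, 31 were lower in both numbers and 0 higher, all 37 had a ratio below 0, and the median was -2.86. DESeq2 called 22 of them lower. Of 35 kinetochore and centromere proteins, 20 were lower in both, with a median of -1.48, and DESeq2 called 13.

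KIF20A, a kinesin of the central spindle needed for cytokinesis (chromosome 5, 138178719 to 138187723), measured 1529 and 903 in control and 28.1 and 17.9 after MS-275. This left 1.84% and 1.99% of the control value within numbers 1 and 2 (log2 fold change -5.65, limma SE 0.47; DESeq2 adjusted p 1.11e-18). The groups did not overlap and lay far apart.

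CDC20, the activator of the anaphase-promoting complex (chromosome 1, 43358981 to 43363203), measured 1458 and 900.5 in control and 59.1 and 45.8 after MS-275, or 4.05% and 5.09% of control (DESeq2 adjusted p 1.83e-13). CENPA, the histone H3 variant that marks centromeres (chromosome 2, 26764289 to 26801067), measured 246 and 224 in control and 9.68 and 7.97 after MS-275 (DESeq2 adjusted p 2.33e-10). HJURP, the chaperone that loads CENPA, measured 788 and 755 in control and 58.1 and 64.8 after MS-275 (DESeq2 adjusted p 4.23e-11). In each of these the replicates of a group lay much closer together than the groups.

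BIRC5 (survivin), a member of the chromosomal passenger complex, measured 1379.8 and 1487 in control and 76.5 and 87.7 after MS-275 (DESeq2 adjusted p 3.79e-15). KIF18B, a kinesin that shortens astral microtubules, measured 348 and 165 in control and 5.81 and 9.97 after MS-275 (DESeq2 adjusted p 9.85e-09). NEK2, a centrosomal kinase, measured 425 and 168 in control and 17.4 and 9.97 after MS-275 (DESeq2 adjusted p 5.63e-07). TROAP, which helps spindle assembly, measured 314 and 154 in control and 8.71 and 9.97 after MS-275 (DESeq2 adjusted p 3.74e-08). All 4 left under 10% of control in each number.

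Checkpoint and kinetochore genes shared the direction but not always the closeness of replicates. BUB1B, a kinase of the spindle checkpoint, measured 820.1 and 332 in control and 53.3 and 15.9 after MS-275 (DESeq2 adjusted p 2.07e-05). KNL1, the scaffold on which checkpoint proteins assemble, measured 908 and 84.9 in control and 81.3 and 3.99 after MS-275 and was not called by DESeq2 (adjusted p 0.0926). Its control libraries lay far apart, and the lower of them was close to the higher MS-275 library. KNL1 is encoded by a long transcript, as is MKI67, and library 1 of each group held more reads of both.

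Cyclins and their kinases did not all move together. Of 16 cyclins, CDKs and CDC25 phosphatases 9 were lower in both and 0 higher, with a median of -1.19, and DESeq2 called 5 lower. CCNB2, a B-type cyclin (chromosome 15, 59105126 to 59125045), measured 1019 and 786 in control and 61 and 51.8 after MS-275 (DESeq2 adjusted p 2.11e-12). CDK1, its kinase, measured 975 and 846 in control and 118 and 96.7 after MS-275 (DESeq2 adjusted p 5.22e-08). CDC25C, the phosphatase that activates CDK1, measured 157 and 195 in control and 20.3 and 8.97 after MS-275 (DESeq2 adjusted p 3.08e-05).

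The other 6 lower members, named after their values were seen, were CCNA2, CCNB1, CCNE2, CDC25A, CCNF and CDC25B, with mean ratios from -2.79 to -1.17. The D-type cyclins with their kinases and CCNE1, also named after their values were seen, did not share this. CCND1 had a mean ratio of -0.55, CDK4 -0.64, CDK6 0.46, CCND3 0.52, CCNE1 0.86 and CCND2 1.10, and none of them was past 1 in both numbers.

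Sequences before the start sites of some of these genes are shown because their lists often held motifs on which they were not built. Whether a motif goes with a change was not tested. Promoters are RefSeq windows on GRCh38.p14 from 250 bases before to 50 after the start, 300 bases in all, given 5′ to 3′ on the strand of the gene, and 11117 of the 15883 genes tested (70.0%) had one. The CHR element (letters TTTGAA) and the CCAAT box (letters CCAAT) are known from late cell cycle promoters, where the DREAM and MuvB complexes and NF-Y bind, and both strands were searched. In the 3 promoters below, from genes of the mitotic, cyclin and kinetochore lists with 1 RefSeq window each, capitals mark every match to either motif, in either orientation.
CDC20, chr1:43358731-43359030, plus strand: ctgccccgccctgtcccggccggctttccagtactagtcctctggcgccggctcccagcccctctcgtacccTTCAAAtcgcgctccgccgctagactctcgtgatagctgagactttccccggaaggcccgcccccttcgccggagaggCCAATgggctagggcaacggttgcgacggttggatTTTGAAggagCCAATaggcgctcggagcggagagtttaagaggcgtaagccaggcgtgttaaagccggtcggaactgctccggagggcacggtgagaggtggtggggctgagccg
CCNB2, chr15:59104896-59105195, plus strand: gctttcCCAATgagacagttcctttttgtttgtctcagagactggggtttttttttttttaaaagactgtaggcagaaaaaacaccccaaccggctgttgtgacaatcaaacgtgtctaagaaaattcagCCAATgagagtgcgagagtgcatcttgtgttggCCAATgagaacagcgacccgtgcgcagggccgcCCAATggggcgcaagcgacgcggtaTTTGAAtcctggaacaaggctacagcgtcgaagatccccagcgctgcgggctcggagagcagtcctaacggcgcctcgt
CENPA, chr2:26785806-26786105, plus strand: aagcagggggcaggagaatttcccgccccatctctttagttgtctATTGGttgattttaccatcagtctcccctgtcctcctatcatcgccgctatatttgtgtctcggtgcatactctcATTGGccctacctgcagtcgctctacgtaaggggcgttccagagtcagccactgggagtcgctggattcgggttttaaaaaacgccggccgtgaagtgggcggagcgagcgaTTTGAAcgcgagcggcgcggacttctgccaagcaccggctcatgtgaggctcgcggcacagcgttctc

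In CDC20 the CHR matches began 178 and 65 bases before the start, and the CCAAT matches 100 and 55 bases before it. In CCNB2 there were 4 CCAAT matches and the CHR match began 29 bases before the start. In CENPA, whose RefSeq start lies within the longer GENCODE gene, the CHR match began 18 bases before the start and the CCAAT matches 205 and 130 bases before it. A CHR match was found in 71.9% of the 32 mitotic list promoters and in 44.4% of the 27 kinetochore list promoters, against 13.7% of all 11117. Among members lower in both it was found in 69.2% of 26 mitotic and 62.5% of 16 kinetochore promoters. KIF20A and NEK2 held no CHR match. Both motifs occurred in 62.5% of the mitotic promoters and in 5.5% of all. A match is a description of letters, and binding was not measured here.

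Genes of DNA replication were lower by less. Of 49 genes of origin licensing and the replication fork 19 were lower in both and 0 higher, with a median of -0.98, and DESeq2 called 11 lower. MCM10, which helps to activate the replicative helicase (chromosome 10, 13161558 to 13211110), measured 315 and 190 in control and 29 and 14 after MS-275 (DESeq2 adjusted p 2.06e-05). CLSPN, the checkpoint adaptor claspin, measured 422 and 173 in control and 48.4 and 34.9 after MS-275 (DESeq2 adjusted p 0.0018). GINS2, a subunit of the helicase, measured 394 and 595 in control and 73.6 and 111 after MS-275 (DESeq2 adjusted p 0.000999), which was 18.7% and 18.6% of control.

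Of 10 enzymes that make deoxynucleotides 4 were lower in both and 0 higher, with a median of -0.91, and all 4 were called by DESeq2. RRM2, the regulated subunit of ribonucleotide reductase (chromosome 2, 10120698 to 10211725), measured 2666 and 2300.2 in control and 209 and 184 after MS-275 (DESeq2 adjusted p 1.39e-12), or 7.84% and 8.01% of control. TYMS, thymidylate synthase, measured 518 and 563 in control and 98.8 and 102 after MS-275 (DESeq2 adjusted p 5.74e-05). In both genes the 2 control libraries lay close together and far above both MS-275 libraries. RRM2B, the subunit used outside S phase, had a mean ratio of 0.25 and is named after its value was seen.

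Repair of DNA breaks by homologous recombination and the Fanconi pathway included 15 of 35 genes lower in both and 0 higher, with a median of -0.78, and DESeq2 called 6 lower. RAD54L, a motor protein that aids strand exchange (chromosome 1, 46246461 to 46278480), measured 139.7 and 84.9 in control and 9.68 and 7.97 after MS-275 (DESeq2 adjusted p 0.000113). BLM, the Bloom helicase, measured 175 and 93 in control and 27.1 and 12 after MS-275 (DESeq2 adjusted p 0.0105). RAD51AP1, which aids strand pairing, measured 270.4 and 168 in control and 64.9 and 17.9 after MS-275 (DESeq2 adjusted p 0.0482). Other members lower in both, named after their values were seen, included BRCA1, BRCA2, FANCD2 and EXO1, with mean ratios from -2.41 to -1.62.

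Other repair lists held fewer genes past the limits, and the difference between lists was not tested. Of 11 genes of non-homologous end joining 1 was lower in both, NHEJ1, with 256 and 121 in control and 86.2 and 59.8 after MS-275, and the median ratio was -0.06. Of 28 genes of base excision, nucleotide excision and mismatch repair 2 were lower in both, NEIL1 with 49.5 and 77.8 in control and 22.3 and 19.9 after MS-275 and LIG3 with 1372 and 1044 in control and 602 and 508 after MS-275, and the median was -0.30. DESeq2 called 0 genes in either list. Their shares lower in both were 9.09% and 7.14%, against 4.85% of all genes. Condensin and cohesin genes included 9 of 21 lower in both, a median of -0.69 and 4 called lower by DESeq2. Their lowest was ESCO2, the acetyltransferase that closes cohesin in S phase, with 218 and 59.6 in control and 19.4 and 3.99 after MS-275 (DESeq2 adjusted p 0.0115).

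A second kind of promoter motif was counted in the replication list and the recombination and Fanconi list. E2F-type sites (letters TTTGGCGC, TTTCGCGC or GGCGGGAA, both strands) are known from genes of the G1/S transition. They are shown for CLSPN and RAD54L, which were low after MS-275, with capitals on the matches. RAD54L has 2 RefSeq windows, of which 1 is shown.
CLSPN, chr1:35769929-35770228, minus strand: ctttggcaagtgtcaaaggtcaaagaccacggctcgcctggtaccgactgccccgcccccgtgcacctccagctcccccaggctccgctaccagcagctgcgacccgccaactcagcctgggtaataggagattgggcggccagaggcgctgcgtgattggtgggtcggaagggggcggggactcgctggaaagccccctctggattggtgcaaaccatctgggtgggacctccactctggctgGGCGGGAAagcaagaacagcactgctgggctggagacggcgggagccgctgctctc
RAD54L, chr1:46247438-46247737, plus strand: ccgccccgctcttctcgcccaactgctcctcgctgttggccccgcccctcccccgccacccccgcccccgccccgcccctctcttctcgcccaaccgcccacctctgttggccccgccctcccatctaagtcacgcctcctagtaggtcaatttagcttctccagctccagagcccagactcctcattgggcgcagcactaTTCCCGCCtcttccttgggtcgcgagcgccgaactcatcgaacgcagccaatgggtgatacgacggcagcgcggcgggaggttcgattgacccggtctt

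The match began 6 bases before the start in CLSPN and 49 bases before it in RAD54L. An E2F-type match was found in 52.4% of 42 replication promoters and 40.0% of 30 recombination and Fanconi promoters, against 8.3% of all and 3.1% of the mitotic list. A CHR match was found in 2.4% of the replication promoters. Over all genes lower in both numbers, 21.7% of 531 promoters held a CHR match and 11.1% an E2F-type match, against 13.4% and 4.7% of 700 promoters of genes higher in both.

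**Figure D2:**
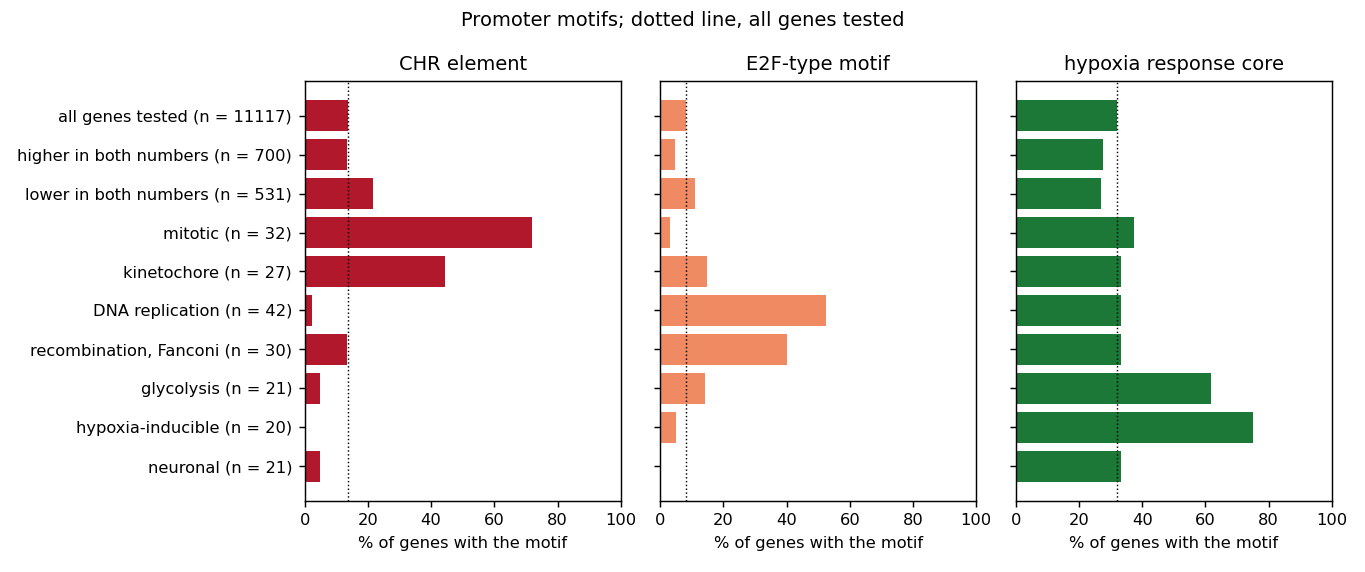
Share of promoters (%, horizontal axis) that hold a CHR element, an E2F-type motif or the hypoxia response core, for all genes tested, the genes higher or lower in both numbers and 7 gene lists, with the dotted line at the share in all genes. CHR matches reach 71.9% in the mitotic list, E2F-type matches 52.4% in the replication list and the hypoxia core 75.0% in the hypoxia-inducible list.

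Regulators of the cell cycle did not all follow. Of 19 genes of the E2F and retinoblastoma families with their partners 5 were lower in both, with a median of -0.67, and DESeq2 called 2. MYBL2, the B-Myb factor of the late cell cycle, measured 711 and 779 in control and 30.0 and 57.8 after MS-275 (DESeq2 adjusted p 2.91e-10). E2F8 measured 61.4 and 24.3 in control and 7.75 and 0 after MS-275 and E2F2 40.6 and 28.3 in control and 1.94 and 7.97 after MS-275, and neither was called by DESeq2.

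Among 8 CDK inhibitors 1 was higher and 2 were lower in both. CDKN2B, which encodes p15, measured 1189.6 and 883 in control and 2756 and 1907 after MS-275, without a DESeq2 call (adjusted p 0.248), and without a known strand setting reads of the overlapping CDKN2B-AS1 could be counted with it. CDKN1C, which encodes p57 (chromosome 11, 2883213 to 2885775, minus strand), measured 100 and 131 in control and 11.6 and 11 after MS-275, or 11.6% and 8.34% of control, and was called lower (DESeq2 adjusted p 0.00015). CDKN2C, which encodes p18, measured 694 and 719.6 in control and 209 and 298 after MS-275 (DESeq2 adjusted p 0.0654).

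The marker genes of senescence followed by the study moved in both directions. LMNB1, lamin B1 (chromosome 5, 126776623 to 126837020), measured 1853 and 1065 in control and 151 and 124 after MS-275, or 8.15% and 11.6% of control (DESeq2 adjusted p 5.95e-08). MKI67, which encodes the proliferation antigen Ki-67, measured 4235 and 380 in control and 256 and 34.9 after MS-275 (DESeq2 adjusted p 0.0129). Its replicates differed by about as much as its groups, and the groups did not overlap. Within the 2 numbers 6.04% and 9.18% of the control value were left.

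CDKN1A, which encodes p21 (chromosome 6, 36676460 to 36687337), measured 39222 and 60630.3 in control and 68365 and 135613 after MS-275, which was 1.74-fold and 2.24-fold of control in numbers 1 and 2 (limma log2 fold change 0.98, SE 0.47, adjusted p 0.583). CDKN2A, which encodes p16 and ARF, measured 1492 and 2637 in control and 2795 and 4418 after MS-275, or 1.87-fold and 1.68-fold. Both inhibitors were above every control library in each MS-275 library, but neither was past 1 within both numbers and DESeq2 called neither. For both genes the control replicates were far apart as well.

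The 16 genes that the study followed in its senescence experiments were chosen by the study in the same cell line, so that they are not independent evidence of a direction. Of these, 13 were lower in both and 1, NDRG1, was higher, with a median of -1.65, and DESeq2 called 5 lower and 1 higher. PCLAF, a partner of the replication clamp PCNA, measured 229.8 and 247 in control and 18.4 and 43.8 after MS-275 (DESeq2 adjusted p 0.000599). KAT6A and FANCC, named after their values were seen, had mean ratios of -0.24 and 0.41.

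Genes that respond to p53 and genes that set the threshold of cell death gave no common direction. Of 24 p53 target genes 1 was higher in both, GDF15, a stress-induced secreted factor, with 1994 and 4115 in control and 10130.2 and 17273 after MS-275 (DESeq2 adjusted p 0.0111), and the median was 0.00. Of 14 BCL2 family genes 1 was lower in both, the antiapoptotic BCL2, with 282 and 258 in control and 102 and 40.9 after MS-275 (DESeq2 adjusted p 0.0742), and 1 was higher, BCL2A1, with 0 and 22.2 in control and 35.8 and 67.8 after MS-275. Among 14 genes often reported to respond to HDAC inhibitors 0 were higher in both and 1, CDKN1C, was lower (7.14%), with a median of 0.46. TXNIP had the highest mean ratio of that list, 1.23, and is named after its value was seen.

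Genes of nuclear structure were lower in part. Of 20 genes of the nuclear lamina and the high mobility group (HMG) proteins 6 were lower in both, 5 of them by DESeq2 too, and the median was -0.56. HMGN2, which binds nucleosomes (chromosome 1, 26472440 to 26476642), measured 10933 and 11674 in control and 2152 and 2551 after MS-275, or 19.7% and 21.9% of control (DESeq2 adjusted p 3.82e-05). HMGB3, a DNA-bending protein, measured 1553 and 1489.7 in control and 389 and 457 after MS-275 (DESeq2 adjusted p 0.003). HMGB2, HMGB1 and the lamina protein TMPO, named after their values were seen, had mean ratios of -1.69, -1.33 and -1.62. LMNA, which encodes lamins A and C, and HMGA1, also named after their values were seen, had -0.08 and 0.13.

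Chromatin modifiers and histones held genes lower in both and 0 higher in both, against 4.85% of all genes lower. Of 25 genes of heterochromatin, DNA methylation and Polycomb 2 were lower in both (8%). UHRF1, which brings DNA methylation to replicated DNA, measured 1894 and 1404 in control and 517 and 473 after MS-275 (DESeq2 adjusted p 0.0105), and EZH2, the methyltransferase of Polycomb complex PRC2, measured 785 and 578 in control and 276 and 287 after MS-275 (DESeq2 adjusted p 0.15). Among 10 linker and variant histones 2 were lower in both. H2AX, the variant phosphorylated at DNA breaks, measured 2219 and 2511 in control and 573 and 862 after MS-275 (DESeq2 adjusted p 0.0169). MACROH2A2, a variant of silent chromatin, measured 1223 and 2200.1 in control and 477 and 529 after MS-275 (DESeq2 adjusted p 0.0284). Of 55 replication-dependent histone genes 21 were tested and 4 were lower in both (19.0%). The lowest was H3C6, with 94.1 and 105 in control and 23.2 and 21.9 after MS-275, and since these genes are near-identical copies of one another, their reads could be split by counting.

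**Figure D3:**
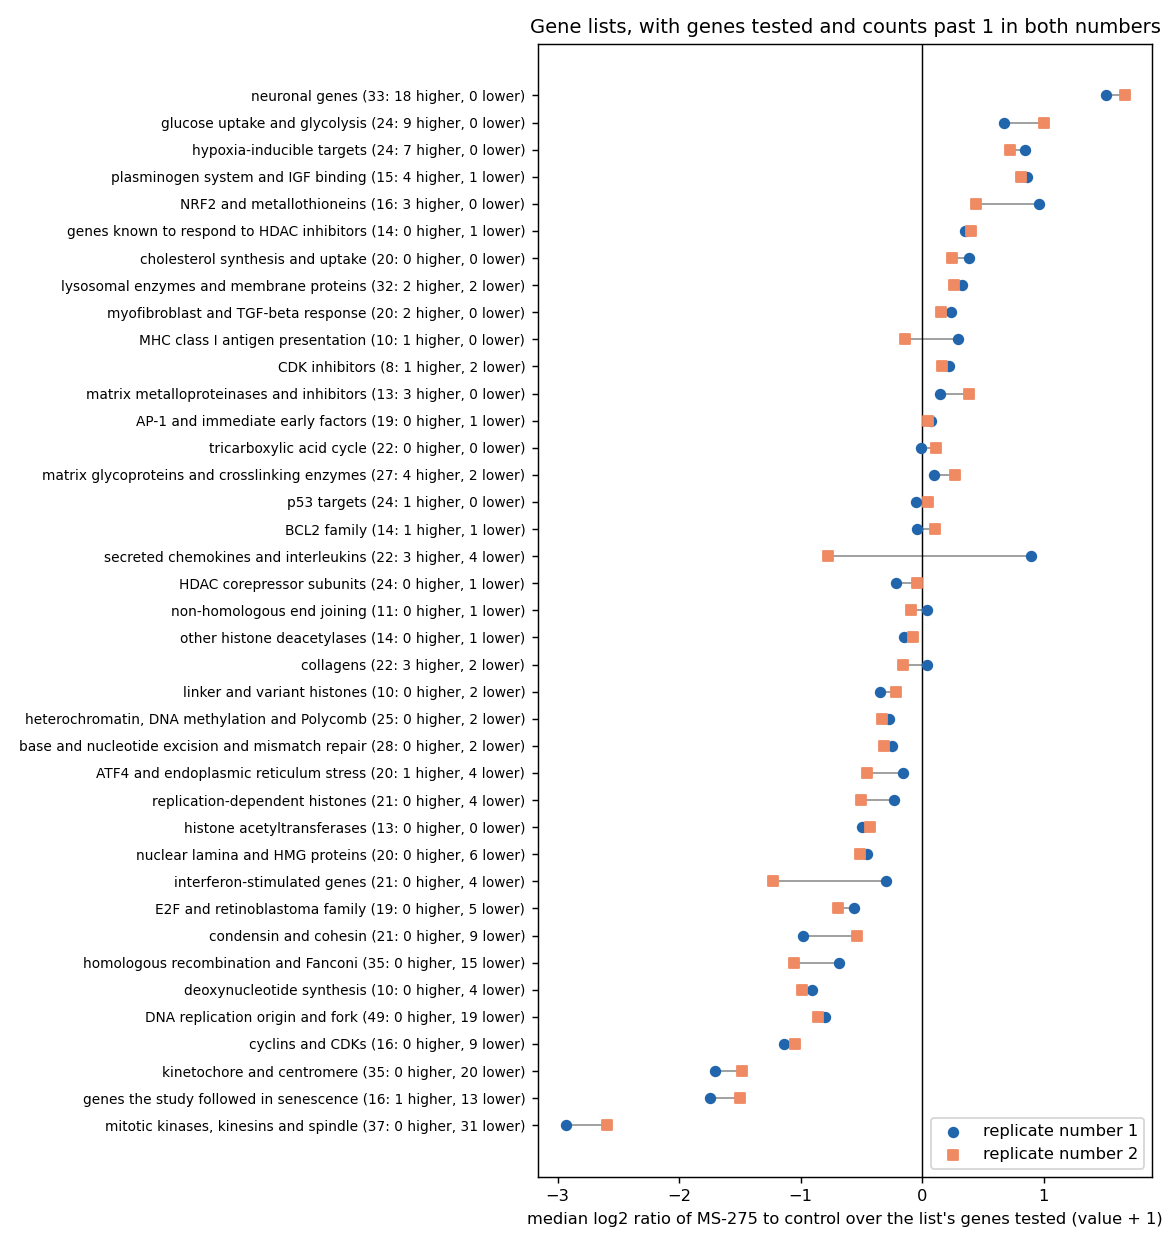
Median log2 ratio of MS-275 to control (value + 1, horizontal axis) over the tested genes of each list, within replicate number 1 (blue circles) and number 2 (orange squares), with the number of genes tested and counted past 1 in both numbers beside each name. The neuronal list is highest with 18 of 33 genes, the mitotic list is lowest with 31 of 37, and the chemokine list has medians of 0.90 and -0.77.

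Genes for glucose uptake and glycolysis were higher. Of 24, 9 were higher in both and 0 lower, 21 had a ratio above 0, and the medians were 0.67 and 1.0 in numbers 1 and 2. DESeq2 called 3 higher. SLC2A1, the glucose transporter GLUT1 (chromosome 1, 42925353 to 42958893, minus strand), measured 5843 and 8115 in control and 31892 and 49854 after MS-275, or 5.46-fold and 6.14-fold (DESeq2 adjusted p 5.74e-05). ALDOC, aldolase C, measured 1051 and 1274 in control and 3377 and 4887 after MS-275 (DESeq2 adjusted p 0.00752). SLC16A3, the lactate exporter MCT4, measured 6178 and 12959 in control and 17126 and 44868 after MS-275 and was not called (DESeq2 adjusted p 0.181).

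LDHA, the subunit of lactate dehydrogenase that makes lactate from pyruvate (chromosome 11, 18394560 to 18408425), measured 24328 and 51223 in control and 57928 and 111103 after MS-275. This was 2.38-fold and 2.17-fold of control in the 2 numbers, but control replicates differed by about as much, and DESeq2 did not call it (adjusted p 0.499). The call depends on the model, since limma with the replicate number as a block called LDHA (limma adjusted p 2.41e-07). The labels do not state that the numbers pair the libraries. LDHB, which favours the reverse reaction, had a mean ratio of -0.34. The other members higher in both, named like LDHB after their values were seen, were ALDOA, HK2, PGK1, ENO2 and SLC2A3, with mean ratios from 1.14 to 1.61. GAPDH and PKM, named in the same way, had 0.35 and 0.24.

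Hypoxia-inducible genes outside glycolysis shared this direction. Of 24, 7 were higher in both and 0 lower, 20 had a ratio above 0, the median was 0.81, and DESeq2 called 3 higher. NDRG1, a stress-induced gene (chromosome 8, 133237175 to 133302022, minus strand), measured 3507 and 7102 in control and 14092 and 37242 after MS-275, or 4.02-fold and 5.24-fold (DESeq2 adjusted p 0.0234). PLOD2, a collagen lysyl hydroxylase, measured 7746 and 4485 in control and 29184 and 17571 after MS-275 (DESeq2 adjusted p 0.0186). ANGPTL4, a secreted inhibitor of lipoprotein lipase, measured 53.5 and 373 in control and 269 and 1565 after MS-275 without a call (DESeq2 adjusted p 0.383), and its replicates differed more than its groups.

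Other hypoxia-inducible genes, named after their values were seen, lay below the list median, and 4 of the 24 had a ratio below 0. VEGFA had a mean ratio of 0.43, LOX -0.11, BHLHE40 -0.09 and DDIT4 -0.45. The 22 genes of the tricarboxylic acid cycle held 0 past 1 in both numbers, with a median of 0.03, and PC, pyruvate carboxylase, had the largest ratio of that list with 1041 and 812 in control and 1425 and 1473 after MS-275.

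The letters ACGTG form the core of the hypoxia response element, to which HIF binds. The LDHA promoter is shown as a member of the glycolytic list with several matches, with capitals on ACGTG in either orientation. LDHA has 2 RefSeq windows, of which 1 is shown.
LDHA, chr11:18394313-18394612, plus strand: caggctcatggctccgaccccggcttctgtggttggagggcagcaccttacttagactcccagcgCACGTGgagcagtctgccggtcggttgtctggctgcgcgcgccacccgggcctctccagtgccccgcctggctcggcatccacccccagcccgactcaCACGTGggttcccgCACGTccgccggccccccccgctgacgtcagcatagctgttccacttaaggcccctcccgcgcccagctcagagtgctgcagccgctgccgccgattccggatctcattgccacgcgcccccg

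Matches covered 3 places, and those on the strand opposite to the gene began 185, 87 and 73 bases before the start. The core was found in 61.9% of 21 glycolysis promoters and 75.0% of 20 promoters of the hypoxia-inducible list, against 31.9% of all. Among members higher in both it was found in 87.5% of 8 glycolysis and 66.7% of 6 hypoxia-inducible promoters. Among all genes higher in both it was found in 27.7% of 700 promoters.

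Genes of neurons were the list with the highest ratios. Of 56 listed for synapses, neurofilaments, secretory granules and neuronal adhesion 33 were tested, and 18 of these were higher in both and 0 lower, with medians of 1.51 and 1.67 in the 2 numbers. DESeq2 called 9 higher. Only listed genes could be tested, and a gene silent in control passed the filter only if it was expressed after MS-275, so that the count describes the genes listed and not all neuronal genes.

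UNC13A, which primes synaptic vesicles, was not on that list but came next to TTBK1 in the order of mean ratios. It (chromosome 19, 17601336 to 17688365, minus strand) measured 13.9 and 2.02 in control and 2035 and 1706 after MS-275. BEX1, a small protein of developing neurons on chromosome X (103062651 to 103064171, minus strand), measured 5.94 and 6.06 in control and 426 and 1033 after MS-275, or 71.7-fold and 170.4-fold. SLC17A7, the vesicular glutamate transporter VGLUT1, measured 6.93 and 0 in control and 201 and 198 after MS-275. RUNDC3A, a protein of neuroendocrine cells, measured 10.9 and 0 in control and 83.3 and 149 after MS-275. Each MS-275 library was above both control libraries in all 4 genes. They were taken for their high ratios, and the groups did not overlap in 1015 of the 1082 genes higher in both.

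Some neuronal genes already had reads in control. Named after their values were seen, SYP (synaptophysin) measured 13.9 and 36.4 in control and 522 and 1054 after MS-275, SNAP25, a SNARE protein, 196 and 99 in control and 783 and 504 after MS-275, and L1CAM, an adhesion molecule of axons, 359 and 98 in control and 1544 and 571 after MS-275. Others of the 18 were SYT1, SCG2, NSG1, KIF5A, NEFL, BEX2, NRXN2, CELSR3, CHGB, CPLX1 and SYT5.

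The 12 genes with the largest mean ratios, taken where the higher group averaged 100 or more, included further genes of excitable cells. KCNN1, a calcium-activated potassium channel, measured 0.990 and 6.06 in control and 198 and 603 after MS-275. CACNA1G, a T-type calcium channel, measured 0 and 26.3 in control and 404 and 551 after MS-275 and was not called (DESeq2 adjusted p 0.388). TMEM151A measured 5.94 and 0 in control and 176 and 257 after MS-275. RIPOR3-AS1, an antisense RNA, measured 5.94 and 85.9 in control and 663 and 2171 after MS-275 (DESeq2 adjusted p 0.000166), and without a known strand setting its reads and those of RIPOR3 cannot be told apart.

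The UNC13A promoter is shown because of the large ratio of this gene. GC boxes (letters GGGCGG, both strands) are bound by Sp factors, through which class I HDACs are known to be held at promoters, and capitals mark the matches.
UNC13A, chr19:17688305-17688604, minus strand: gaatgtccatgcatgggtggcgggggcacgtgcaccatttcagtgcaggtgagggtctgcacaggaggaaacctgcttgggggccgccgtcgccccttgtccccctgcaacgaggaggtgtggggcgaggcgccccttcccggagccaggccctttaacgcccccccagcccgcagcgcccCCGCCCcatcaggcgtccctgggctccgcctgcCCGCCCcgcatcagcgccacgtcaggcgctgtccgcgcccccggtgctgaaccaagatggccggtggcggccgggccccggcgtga

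The 2 matches began 69 and 36 bases before the start. A GC box was found in 76.0% of all promoters, in 76.2% of 21 promoters of the neuronal list and in 71.7% of those of genes higher in both.

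A gene was taken as near 0 in control at a value of at most 5 in both control libraries, and 176 genes were. Of these, 13 measured at least 50 in both MS-275 libraries and 48 at least 20. In the mirror case 62 genes were at most 5 in both MS-275 libraries, and of these 1 was at least 50 and 13 were at least 20 in both control libraries. The limits use the same contrast as the counts, so that these genes are a description and were not tested as a group. Through the read minimum for listing, a gene this low in control entered only when both MS-275 libraries reached that minimum. The mirror genes entered in the same way through both control libraries. Genes silent in both groups were thus missing beforehand, and 13 of 176 is not the share of silent genes that became expressed.

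TTBK1, a tau tubulin kinase of brain (chromosome 6, 43243481 to 43288258), had 2 and 0 reads in the control libraries and 499 and 552 after MS-275. CADM3, a synaptic adhesion molecule (chromosome 1, 159171609 to 159203313), had 0 reads in both control libraries and 116 and 193 after MS-275, which is at least 50.2-fold higher when 3 reads per library are taken as the floor. RTBDN, retbindin, a riboflavin-binding protein of the retina, had 0 reads in control and 86 and 168 after MS-275, at least 41.3-fold higher.

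TMEM63C, a membrane channel protein, had 0 reads in control and 73 and 61 after MS-275, at least 21.7-fold higher. HIF3A, a HIF family member that can restrain hypoxia responses, is named after its values were seen, with 0 reads in control and 57 and 66 after MS-275, at least 19.9-fold higher. SLC2A4, the insulin-responsive glucose transporter GLUT4, had 2 and 0 reads in control and 111 and 193 after MS-275. GPR4, a proton-sensing receptor, had 2 and 0 reads in control and 100 and 92 after MS-275.

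The remaining genes of this kind had fewer reads. TUBB4A, a beta tubulin of brain, had 0 and 1 reads in control and 167 and 56 after MS-275. JPH4, a junctophilin of neurons, had 2 and 0 reads in control and 73 and 99 after MS-275. FXYD7, a brain regulator of the sodium pump, had 3 and 2 reads in control and 81 and 116 after MS-275. TPPP, which promotes tubulin polymerisation in oligodendrocytes, VIT (vitrin), a matrix protein, and ENSG00000248187 went from at most 4 reads in each control library to between 56 and 105 after MS-275.

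The mirror gene was SAPCD2, a regulator of spindle orientation (chromosome 9, 137062127 to 137070557, minus strand), with 184 and 56 reads in control and 2 in each MS-275 library.

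**Figure D4:**
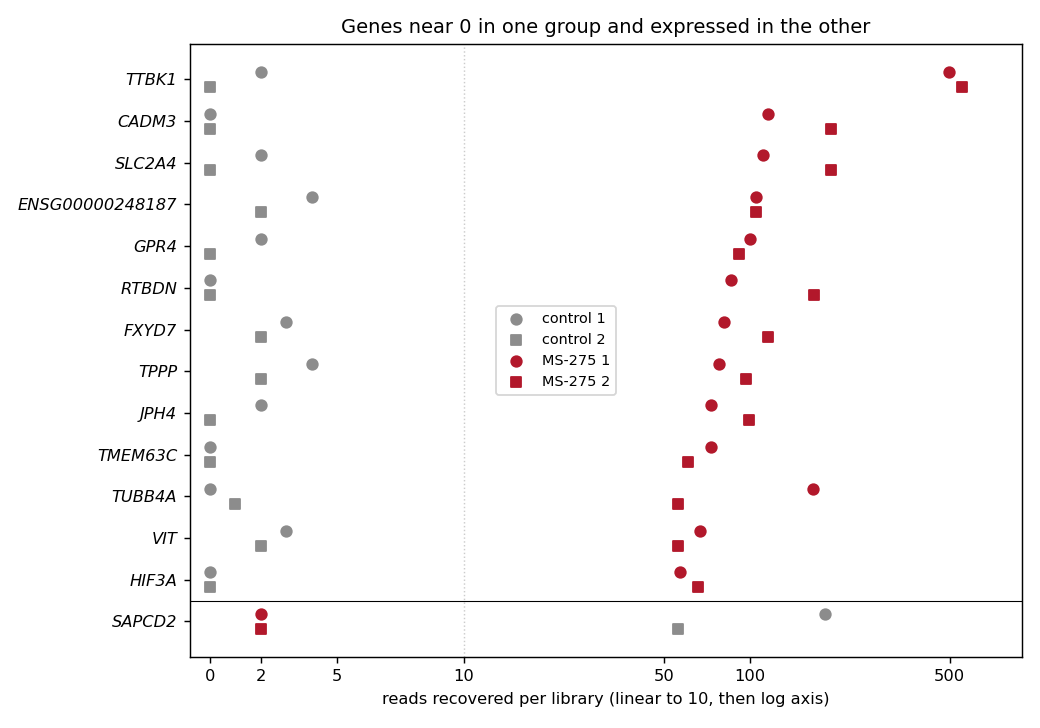
Reads recovered in each library (horizontal axis, linear to 10 and logarithmic beyond) for the 13 genes near 0 in control and, under the line, the 1 gene near 0 after MS-275, with grey control and red MS-275 points, circles for replicate 1 and squares for replicate 2. Every MS-275 point of the upper 13 genes lies at 56 reads or more and every control point at 4 or fewer.

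Lists of the secretory profile differed in their counts. In the plasminogen system and the IGF-binding proteins 4 of 15 genes were higher in both and 1 was lower, with 14 ratios above 0 and a median of 0.80. IGFBP3, which binds insulin-like growth factors (chromosome 7, 45912245 to 45921874, minus strand), measured 7887 and 12969 in control and 94131 and 281590.0 after MS-275, or 11.9-fold and 21.7-fold (DESeq2 adjusted p 1.03e-07). SERPINB2, the plasminogen activator inhibitor PAI-2, measured 132 and 828 in control and 1959 and 12551 after MS-275, or 14.9-fold and 15.2-fold (DESeq2 adjusted p 0.00464). IGFBP6 was the lower member, with 3004 and 7717 in control and 1371 and 1945 after MS-275 (DESeq2 adjusted p 0.119). SERPINE2, a protease inhibitor, measured 4550.3 and 6198 in control and 12312 and 20546 after MS-275 (DESeq2 adjusted p 0.0504).

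Of 13 matrix metalloproteinases and inhibitors 3 were higher in both. MMP3, stromelysin, measured 97.1 and 110.2 in control and 557 and 788 after MS-275 (DESeq2 adjusted p 1.77e-05). MMP1, interstitial collagenase, measured 7301 and 11384 in control and 46988 and 42622 after MS-275 (DESeq2 adjusted p 0.000296), and the groups did not overlap. TIMP4, an inhibitor of these enzymes, measured 26.7 and 101 in control and 143 and 324 after MS-275 (DESeq2 adjusted p 0.268). The list median was 0.12 and changed sign with equal library totals, as did those of the tricarboxylic acid cycle, matrix glycoproteins, AP-1 factors, the senescence and lysosomal marker panel and the epithelial and muscle markers.

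Chemokines and interleukins differed between the numbers. Of 22, 3 were higher in both, 4 were lower in both and 4 lay past 1 in opposite directions, and the medians were 0.90 in number 1 and -0.77 in number 2. Named after their values were seen, CXCL8 measured 171 and 9798 in control and 2836 and 8917 after MS-275 and CXCL1 60.4 and 2989 in control and 89.1 and 351 after MS-275, so that control library 2 was high and control library 1 low. The same was seen for IL1B, with 13.9 and 349.7 in control and 40.7 and 146 after MS-275, and for CXCL10, with 39.6 and 794 in control and 96.8 and 75.7 after MS-275.

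Members that moved alike in both numbers were few. IL24, a cytokine of the IL-10 family, had no reads in control and 19.4 and 43.8 after MS-275, at least 10.4-fold higher. IL33, an alarmin, measured 13.9 and 4.04 in control and 75.5 and 21.9 after MS-275 without a call (DESeq2 adjusted p 0.278), and CSF1, named after its value was seen, 3440.0 and 3076 in control and 9764 and 8582 after MS-275. IL32 measured 1424 and 2324 in control and 392 and 545 after MS-275 (DESeq2 adjusted p 0.00736), CCL2, which draws monocytes, 2399 and 3769 in control and 1149 and 987 after MS-275 (DESeq2 adjusted p 0.0538), and CCL7 17.8 and 20.2 in control and 7.75 and 0 after MS-275 (DESeq2 adjusted p 0.772). IL6 measured 169 and 664 in control and 406 and 938 after MS-275, with overlapping groups, and is named after its value was seen.

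Of 21 interferon-stimulated genes 4 were lower in both and 0 higher, with medians of -0.30 and -1.23. IRF7, the interferon regulatory factor (chromosome 11, 612553 to 615983, minus strand), measured 40.6 and 106 in control and 1.94 and 0 after MS-275 (DESeq2 adjusted p 0.000494). OAS3, an oligoadenylate synthetase, measured 661 and 925 in control and 158 and 137 after MS-275 (DESeq2 adjusted p 0.000122). XAF1 measured 38.6 and 36.4 in control and 5.81 and 3.99 after MS-275 (DESeq2 adjusted p 0.0647). Among 10 genes of class I antigen presentation 1 was higher in both, HLA-E, with 14.9 and 22.2 in control and 32.9 and 46.8 after MS-275, and other human leukocyte antigen genes have near-identical copies that can share its reads.

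**Figure D5:**
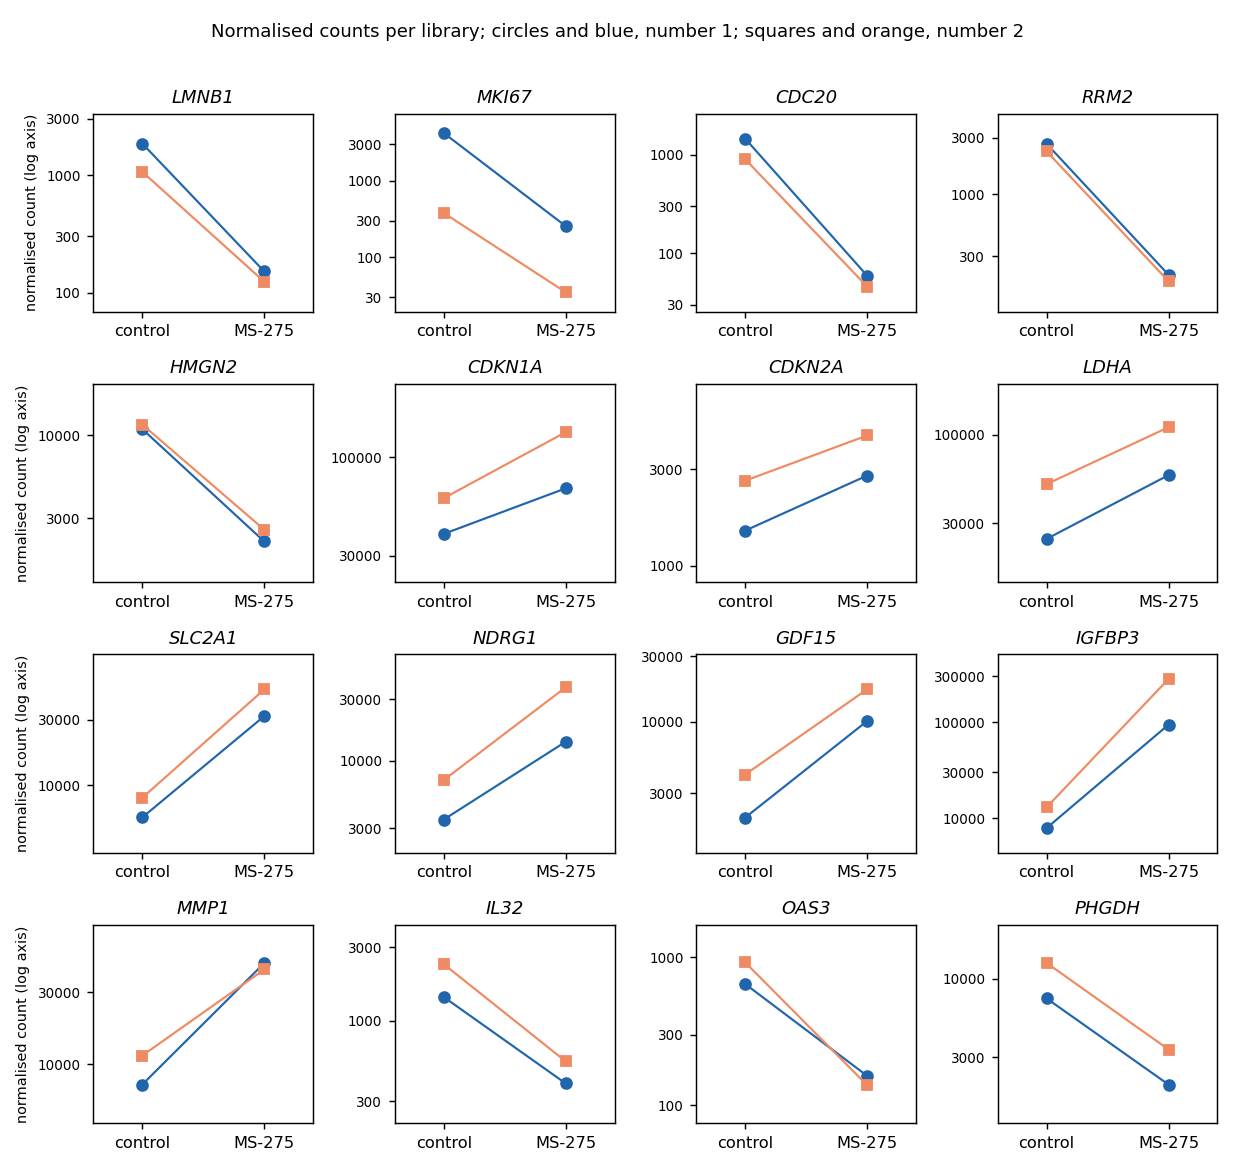
Normalised counts (vertical axes, logarithmic, with a range of their own per gene) of 16 genes in the 4 libraries, with lines that join libraries that share a replicate number (blue circles 1, orange squares 2). Both lines run down for LMNB1, MKI67, CDC20, RRM2, HMGN2, IL32, OAS3 and PHGDH and up for CDKN1A, CDKN2A, LDHA, SLC2A1, NDRG1, GDF15, IGFBP3 and MMP1.

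All 10 fibroblast markers had reads in every library. Of these, LUM was higher in both and COL3A1 lower in both, and the median was -0.06. Among 22 collagens 3 were higher in both (13.6%) and 2 lower (9.09%), with DESeq2 calling 0. COL11A1 measured 3104 and 742 in control and 13920.0 and 4276 after MS-275 (DESeq2 adjusted p 0.125) and COL4A1, a chain of basement membranes, 54596 and 36820.0 in control and 118038 and 83753 after MS-275. COL3A1, a fibrillar collagen, measured 96802 and 91024 in control and 48244 and 25732 after MS-275 and COL15A1 8508 and 3330.0 in control and 2403 and 463 after MS-275.

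Of 27 matrix glycoproteins and crosslinking enzymes 4 were higher (14.8%) and 2 lower (7.41%) in both. LUM (lumican), a proteoglycan of collagen fibrils (chromosome 12, 91102629 to 91111494, minus strand), measured 13575 and 9223 in control and 67079 and 38191 after MS-275 (DESeq2 adjusted p 0.00257). THBS1, an adhesive glycoprotein that activates TGF-beta, measured 107550.0 and 42646 in control and 287958 and 122452 after MS-275 (DESeq2 adjusted p 0.358), while its paralog THBS2 measured 3129 and 1453 in control and 1275 and 651 after MS-275 (DESeq2 adjusted p 0.435). LOXL1, which crosslinks elastin, measured 8639 and 11990.0 in control and 3766 and 5325 after MS-275 (DESeq2 adjusted p 0.227).

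Of 20 genes of the myofibroblast and the TGF-beta response 2 were higher in both (10%, against 6.81% of all genes) and called. The list median was 0.21, and 9 ratios were below 0. INHBA, a subunit of activin A, measured 7479 and 3676 in control and 26114 and 16331 after MS-275 (DESeq2 adjusted p 0.0294), and CCN2, a matricellular growth factor, 25194 and 17419 in control and 69346 and 74205 after MS-275 (DESeq2 adjusted p 0.00903). Among 19 AP-1 and immediate early factors 1 was lower in both (5.26%, against 4.85% of all genes), EGR3, with 66.4 and 36.4 in control and 32 and 15.9 after MS-275.

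Metabolic and stress lists held a few called genes. Of 20 genes of the ATF4 and endoplasmic reticulum stress programmes 4 were lower in both and 1 was higher, with a median of -0.31, and DESeq2 called 3 lower. These were the enzymes of serine synthesis in order of the pathway. PHGDH (chromosome 1, 119648411 to 119744218) measured 7394 and 12750.0 in control and 1966 and 3371 after MS-275 (DESeq2 adjusted p 0.0226), PSAT1 10847 and 13654 in control and 4254 and 4886 after MS-275 (DESeq2 adjusted p 0.0472) and PSPH 1895 and 2967 in control and 717 and 881 after MS-275 (DESeq2 adjusted p 0.0415). The higher member was CHAC1, which degrades glutathione, with 1744 and 5036 in control and 4642 and 11740.2 after MS-275 (DESeq2 adjusted p 0.587).

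Of 16 NRF2 targets and metallothioneins 3 were higher in both, with a median of 0.79. SRXN1, sulfiredoxin, measured 148 and 187 in control and 647 and 719 after MS-275 (DESeq2 adjusted p 0.00187). NQO1, a quinone reductase, measured 10577 and 27330.3 in control and 34234 and 77149 after MS-275 (DESeq2 adjusted p 0.277), and AKR1C3, whose paralogs are near-identical, 73.3 and 101 in control and 212 and 354 after MS-275 (DESeq2 adjusted p 0.0795).

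Of 32 lysosomal genes 2 were higher (6.25%) and 2 lower (6.25%) in both, near the 6.81% and 4.85% of all genes, so that the genes below do not describe the list. LIPA, the acid lipase, measured 4318 and 4486 in control and 12789 and 15587 after MS-275 (DESeq2 adjusted p 0.00732) and CTSB, cathepsin B, 54377 and 83858 in control and 115767 and 179473 after MS-275 (DESeq2 adjusted p 0.374). CTSK, the collagen-degrading cathepsin K, measured 1374 and 2919 in control and 339.9 and 506 after MS-275 (DESeq2 adjusted p 0.004) and CTSS 90.1 and 233 in control and 32 and 34.9 after MS-275 (DESeq2 adjusted p 0.0437). The 20 cholesterol genes held 0 past 1 in both, with 19 ratios above 0 and a median of 0.31.

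Few markers of other cell types were tested, and those higher in both were low. Of 12 epithelial markers 6 were tested and 2 were higher in both, KRT19 with 56.5 and 28.3 in control and 198 and 107 after MS-275 and KRT7 with 19.8 and 52.6 in control and 59.1 and 123 after MS-275, while the summed level of the list was 2014 and 3742 in control and 1464 and 2918 after MS-275. Of 8 endothelial markers 6 were tested and 3 were higher in both, TIE1 with 21.8 and 52.6 in control and 89.1 and 266 after MS-275, KDR with 7.92 and 8.08 in control and 29 and 47.8 after MS-275 and ESAM with 5.94 and 6.06 in control and 30.0 and 17.9 after MS-275. The list had 5 of 6 ratios above 0 and a median of 1.35. Its summed level was 820.1 and 1463 in control and 724 and 996 after MS-275, of which TEK, named after its values were seen, made up 688 and 1271 in control and 434 and 474 after MS-275. The defining markers PECAM1 and CDH5 were not among the listed genes.

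Of 10 blood, 10 muscle and 8 liver markers 1, 3 and 1 were tested. The blood marker was CD14, with 0 and 18.2 in control and 9.68 and 14 after MS-275, the liver marker AFP, with 18.8 and 44.5 in control and 43.6 and 76.7 after MS-275, and the muscle gene with the largest difference was DES, with 50.5 and 18.2 in control and 30.0 and 6.98 after MS-275. None of these was past 1 in both numbers. Of 28 germline and testis genes 4 were tested and 1, TEX15, was higher in both, with 35.7 and 0 in control and 77.5 and 9.97 after MS-275 and overlapping groups. The part of other cell types in the results was not tested.

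Outside the lists, the lowest genes included 2 that do not belong to the cell cycle. NPTX1, a neuronal pentraxin (chromosome 17, 80466834 to 80477843, minus strand), measured 11125 and 7578 in control and 569 and 209 after MS-275, or 5.12% and 2.76% of control (DESeq2 adjusted p 2.82e-10). HTR2B, a serotonin receptor, measured 107 and 108 in control and 9.68 and 2.99 after MS-275 (DESeq2 adjusted p 8.23e-05). The sign of NPTX1 was opposite to that of most of the neuronal list.

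Of the 79 genes that moved in opposite directions, 3 with the largest difference are given. SMIM11 measured 34.7 and 669 in control and 198 and 30.9 after MS-275 and RRN3, a factor of RNA polymerase I, 36.6 and 409 in control and 209 and 32.9 after MS-275. ENSG00000279096 measured 95.1 and 56.6 in control and 0 and 321 after MS-275. In SMIM11 and RRN3 control library 2 and MS-275 library 1 were high and the others low, and DESeq2 called none of the 3. RRN3 and SMIM11 have near-identical copies elsewhere in the genome, whose reads counting could split.

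Effects of MS-275 were set against those of A485, an inhibitor of the acetyltransferase p300 tested in IMR90 with a control of its own, for the senescence and lysosomal marker panel and the class I HDACs. The difference of the 2 log2 fold changes was tested as a contrast over 8 libraries and 15130 genes, and 0 of 11 genes passed (limma, Benjamini-Hochberg). For LDHA the log2 fold change was 1.18 after MS-275 and -0.89 after A485 (difference 2.07, SE 0.64, adjusted p 0.145). For CDKN1A it was 0.98 and -0.64 (difference 1.62, SE 0.65, adjusted p 0.257). For LMNB1 it was -3.35 and -1.12 (difference -2.24, SE 0.93, adjusted p 0.271) and for MKI67 -3.73 and -1.38 (difference -2.34, SE 1.78, adjusted p 0.577). A p above the threshold in this small design does not show that the 2 inhibitors act alike.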

How the data were processed

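Bulk RNA-seq was analysed in 4 IMR90 libraries, 2 per group, grouped by their titles. The authors trimmed reads with Trim Galore (0.6.10), aligned them to hg38 with HISAT2 (2.2.1) and SAMtools (1.7), counted them with featureCounts (2.0.6) and normalized with DESeq2 (1.34.0). What they deposited is a signal, in which the reads counted for a gene are divided by the size factor of the library. Annotation and strand setting are not given in the sources used here. All values (100%, tolerance 1e-06) were whole multiples of what 1 read is worth in their library, so reads could be recovered. Intervals were not computed, and depth covers counting error only.

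From these values log2(value + 1) was computed for genes with a mean of at least 10 (15883 of 16417). Changes of low genes are understated on this scale. The main test was limma (3.58.1; eBayes with trend, no covariate, Benjamini-Hochberg over all genes tested), with edgeR (4.0.16) and DESeq2 (1.42.0) on recovered reads as alternatives, in R (4.3.3). Calls needed an adjusted p under 0.05 and a log2 fold change past 1 in either direction. The fits were tested on simulated data with independent libraries and no effect of the replicate number. This did not test them under the spread seen here. Replicates differed by far more than sampling noise (chi-square per gene 419 in control and 472 after MS-275) and were kept apart. Gene positions came from GENCODE on hg38 and promoter windows from RefSeq. Other steps used Python (3.11.15), numpy (2.4.6), pandas (2.3.3) and matplotlib (3.10.9).

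Members and gene lists were chosen with earlier results of these data known. Named genes were the senescence and lysosomal marker panel and class I HDACs, the 12 highest and 12 lowest genes past 1 in both numbers, where the higher group averaged 100 or more, the first 12 genes near 0 in control and the first 6 of the mirror, up to 3 members of each list in its main direction and 2 in the other (or its largest), and 3 genes of opposite direction. Of these, some are not reported here but remain in the counts. Gene lists were described by counts and medians, without a set test.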

Additional observations from a re-analysis of the deposited data

How the results depend on the processing

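No replicate numbers are stated to pair the libraries, and only 2 pairs exist. Deviations from the group means correlated at 0.73 between libraries of the same number. With the replicate number as a block, limma called 1230 genes higher and 953 lower in place of 0, edgeR 1136 and 899, and DESeq2 959 and 752, and in the A485 contrast the block passed 5 of 11 genes in place of 0. DESeq2 without the block called 350 and 224. Without 1 library limma called 0 to 292 higher and 0 to 149 lower. The count was 292 and 98 without control replicate 1, 270 and 149 without control replicate 2, 10 and 2 without MS-275 replicate 1 and 0 without MS-275 replicate 2, where a lone library is assumed to vary like the other group. Pseudocounts of 0.1 and 10, no filter, a mean of at least 50, equal totals, quantile normalization and edgeR without the block called 0.

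The 1082 genes higher in both numbers became 665 with a mean of at least 50, 681 in all 4 pairings and 2051 at a limit of 0.58, and 1622 to 1769 within 1 number alone. The 770 lower became 432 in all pairings, 509 with ratios across numbers, 1794 at 0.58, and 1154 to 1553 within 1 number. The 13 genes near 0 in control became 22 at limits of 2 and 20, and 17 to 33 without 1 library, with 1 to 6 in the mirror. Within a single number, CD14, the 1 blood marker tested, ranged from -0.36 to 3.42 and ENSG00000279096 from -6.59 to 2.48, and both reversed without number 1. Other changes in sign were 7 list medians with equal totals and 12 between the numbers. The cause of these changes was not tested.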

Other observations

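Gene families taken by symbol, described here by the same counts, also differed in direction, against 6.81% of all genes higher and 4.85% lower in both numbers. A gene low in control passed the filter only if it was higher after MS-275, as with CLDN7, KCNN1 and TUBB4A. The counts therefore describe the genes tested and not whole families. Of 44 potassium channel genes 14 were higher and 3 lower in both, with a median log2 ratio of 0.73, and DESeq2 called 8 higher and 1 lower. The genes of this paragraph are named after their values were seen. KCNU1 measured 7.92 and 14.1 in control and 124 and 221 after MS-275, while KCND2, an A-type channel, measured 236 and 35.4 in control and 36.8 and 5.98 after MS-275. Of 21 integrin genes 3 were higher and 0 lower, with a median of 0.73, and ITGA7, a laminin receptor, measured 442 and 178 in control and 2151 and 1376 after MS-275. Of 10 claudins 3 were higher, among them CLDN7, a tight junction protein, with 8.91 and 3.03 in control and 48.4 and 109 after MS-275. Of 15 keratins 4 were higher and 0 lower. Of 24 tubulins 2 were higher (8.33%), TUBB4A and TUBA4A, and TUBA4A measured 382 and 542 in control and 2212 and 3197 after MS-275.

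Among noncoding RNAs named LINC, 32 of 200 were higher (16%) and 10 lower (5%) in both, with DESeq2 calling 10 higher and 0 lower. Among 417 antisense RNAs 29 were higher (6.95%) and 24 lower (5.76%), near the 6.81% and 4.85% of all genes. Of 506 zinc finger genes named ZNF 10 were higher (1.98%) and 29 lower (5.73%) in both, and the share lower was near the 4.85% of all genes. Of their ratios 382 were below 0, with a median of -0.31. Ribosomal protein genes stayed within the limits, with 0 of 77 past 1 in both numbers and a median of 0.02.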
